A study of Mus musculus with 28 samples.

Results

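The genes described here are 10 genes of the synapses that hair cells (HCs) make: Otof, Slc17a8, Cacna1d, Cabp2, Ctbp2, Bsn, Pclo and Rims2 at the ribbon synapse, and Chrna9 and Chrna10 at the efferent synapse. They were chosen by name, with earlier results of these data known, and are 10 of the 19421 genes in the deposited table. Their mRNA was measured by RNA-seq in 28 libraries from 7 doxycycline-inducible mouse embryonic stem cell lines, all derived from the parental line A2loxCre. The lines carried Atoh1 (iAtoh1), Gfi1 (iGfi1), Pou4f3 (iPou4f3), Gfi1 with Atoh1 (iG+A), Gfi1 with Pou4f3 (iG+P), Pou4f3 with Atoh1 (iP+A), or Gfi1, Pou4f3 and Atoh1 together (iGPA), each followed by an mVenus reporter, with a Flag tag on Atoh1 and a Myc tag on Pou4f3. For each line there were 2 Dox libraries, from embryoid bodies (EBs) given doxycycline at 2 µg/ml for 48 h from day 4 and sorted for Venus+ cells at day 6, and 2 No Dox libraries, from whole untreated EBs at day 6 that were not sorted. Doxycycline and sorting therefore went together, and their effects cannot be told apart. The 2 replicates of a line were different clones of it, so the spread between them holds clonal differences.

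A hair cell turns the deflection of its bundle into a graded voltage and releases glutamate without pause onto afferent nerve fibres. The release sites carry a synaptic ribbon, a dense body that tethers vesicles next to L-type calcium channels. Efferent fibres from the brainstem end on hair cells in turn, and their acetylcholine acts through a nicotinic receptor built from α9 and α10 subunits. Several of these proteins are shared with photoreceptors or with conventional synapses of neurons, so the genes are markers of a hair cell synapse only as a group.

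The induced transcription factors were at 4694 or more normalized counts in every library in which they were switched on and at 120.1 or fewer in every other library. Estimated depth ran from 30.35 to 48.04 M reads per library. All 10 genes passed the filter on low values (10 or more normalized counts in 2 libraries or more), with 16837 genes tested, although Chrna9 reached 10 normalized counts in 3 libraries, Chrna10 in 4, Cabp2 in 7 and Slc17a8 in 8. Expression is given in normalized counts, fold changes are differences of log2(normalized count + 1) between Dox and No Dox of the same line, which understate the change of low genes, and a gene was called where its adjusted p was below 0.05 and its log2 fold change reached 1.5 in size. Of 8 general HC markers, Lhx3, Espn and Myo6 were called upward in iGPA cells, Myo7a, Cdh23, Tmc1 and Strc were not, and Ocm did not pass the filter. Among the other lines, 3 HC markers were called upward in iG+A, 2 each in iG+P and iP+A, and none in any line with 1 factor. Of all genes tested, 4.7% to 8.65% were called upward in the 4 lines with 2 or 3 factors and 1.47% to 2.89% in those with 1, so that 0 of 7 HC markers is near the share over all genes there.

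Of the 10 synapse genes, 7 were called upward in at least 1 line, and Cacna1d, Ctbp2 and Rims2 were called in none, while 14.5% of all genes tested were called upward in at least 1 line. In each line with a pair of factors and in iGPA cells 4 of the 10 were called upward, but they were not the same 4. The count in iG+A cells fell to 2 without Dox replicate 2 or when only the iG+A groups were fitted, and the call for Bsn, made in iP+A and not in iGPA cells, separates log2 fold changes of 1.51 and 1.46. Those of iGPA cells were Otof, Slc17a8, Cabp2 and Pclo, where 8.65% of all genes tested were called upward and 5.31% downward. Those of iG+P cells were Otof, Slc17a8, Cabp2 and Chrna10, beside 5.16% of all genes upward and 5.36% downward. Those of iP+A cells were Otof, Cabp2, Pclo and Bsn, beside 4.7% upward and 2.58% downward. Those of iG+A cells were Slc17a8, Cabp2, Pclo and Chrna9, beside 7.35% upward and 4.95% downward. Chrna9 passed the filter on low values only through iG+A Dox, so its place among these 4 and among the 7 rests on that group. Otof alone was called upward in iPou4f3 cells (1.47% of all genes upward, 0.606% downward). None was called upward in iAtoh1 cells (2.89% upward, 2.52% downward) or in iGfi1 cells (2.15% upward, 2.67% downward), and Chrna9 was called downward in the latter. The median log2 fold change of the 10 genes was highest in iGPA cells, at 1.29, followed by iG+A (1.08), iG+P (1.04), iP+A (0.63), iPou4f3 (0.49), iAtoh1 (0.12) and iGfi1 (0.01) cells, while that of all genes tested lay between -0.03 and 0.02 in every line.

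**Figure D1:**
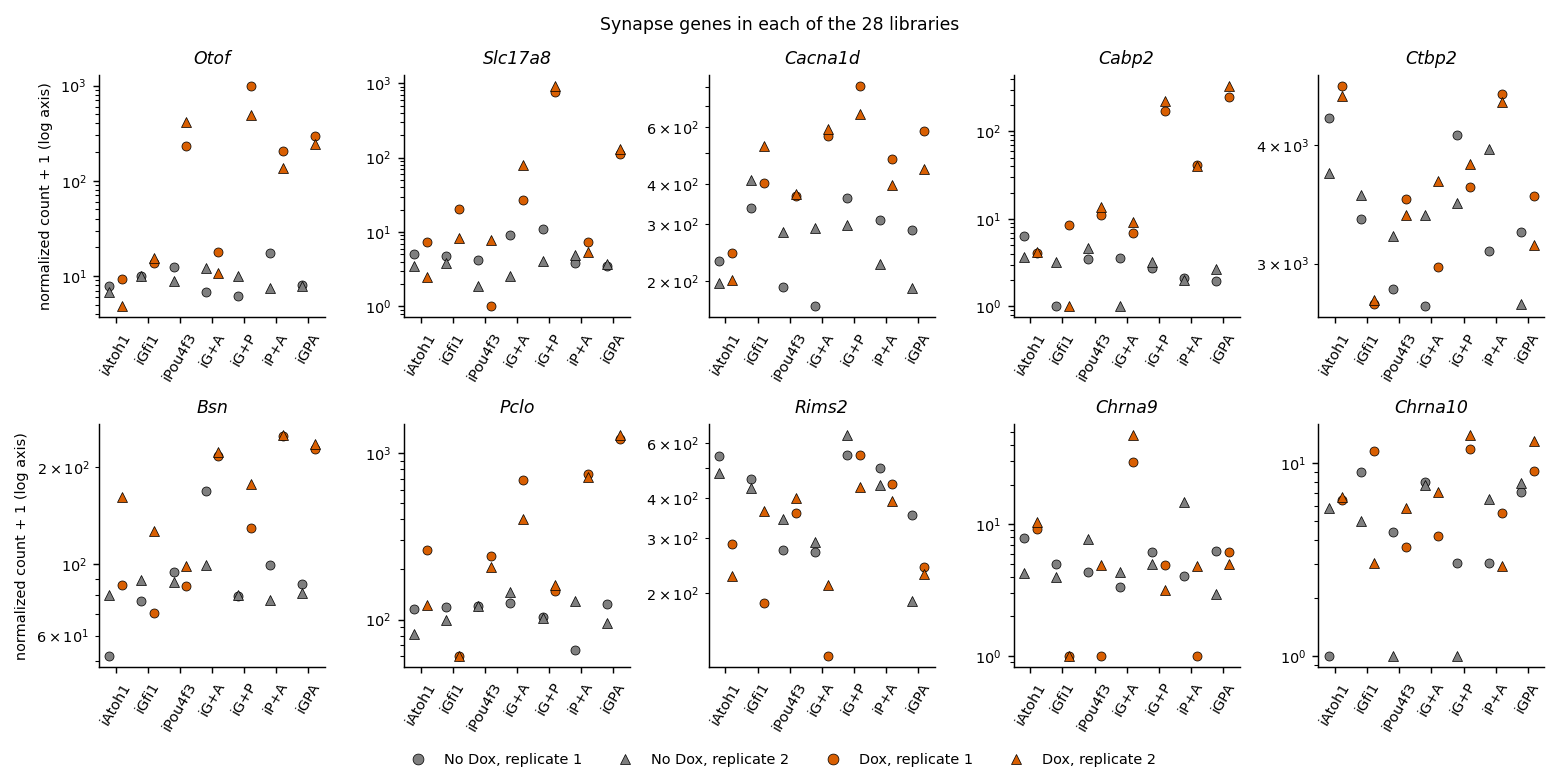
Normalized count + 1 (log axis, a separate scale in each panel) of the 10 synapse genes in each of the 28 libraries, by line, with No Dox libraries in grey, Dox libraries in orange, replicate 1 as a circle and replicate 2 as a triangle. Otof stands far above its controls in the 4 lines that carry Pou4f3 and slightly above them in iGfi1. Slc17a8 is highest in iG+P Dox, Pclo is highest in iGPA Dox, and Ctbp2 stays between 2702 and 4622 normalized counts throughout.

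Otof (chromosome 5, 30669351 to 30764305, minus strand, NCBIM37) encodes otoferlin, the calcium sensor that HC vesicle release depends on. Its level in the 14 untreated libraries was low, between 5.11 and 16.3 normalized counts with a median of 7.40. It was 5.11 and 9.02 in untreated iG+P EBs and 997.2 and 484.7 with Dox, a log2 fold change of 6.48 ± 0.48 (SE, adjusted p = 1.44e-08). In iGPA cells it went from 6.99 and 6.88 to 293.0 and 240.3, a log2 fold change of 5.07 (adjusted p = 1.39e-07). Both Dox libraries of each line stood far above all 14 untreated libraries.

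Pou4f3 without another factor was enough for a call. Otof was 11.3 and 7.81 in untreated iPou4f3 EBs and 231.3 and 414.2 with Dox, a log2 fold change of 4.90 (adjusted p = 4e-06). For iP+A cells the counts were 16.3 and 6.44 without Dox and 204.7 and 135.6 with it, a log2 fold change of 3.89 (adjusted p = 9.61e-06). The 3 lines without Pou4f3 gave no call. In iAtoh1 cells Otof was 8.23 and 3.78 with Dox, in iGfi1 cells 12.6 and 14.4, and in iG+A cells 17.0 and 9.76, with log2 fold changes of -0.13, 0.53 and 0.61 (adjusted p = 0.883, 0.441 and 0.328). Both iGfi1 Dox values were slightly above both untreated ones of that line, at 8.985 and 9.002. With Dox, the order of the groups was iG+P, iPou4f3, iGPA and iP+A. The ranges of iPou4f3 and iGPA overlapped and the other neighbours among these 4 did not.

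Slc17a8 (chromosome 10, 89036765 to 89083998, minus strand, NCBIM37) encodes VGLUT3, the transporter that fills HC vesicles with glutamate. It was between 0.857 and 10.1 normalized counts in the untreated libraries (median 2.97), which is near the value of a few reads. It rose in iG+P cells from 10.1 and 3.08 to 748.4 and 926.5, a log2 fold change of 6.95 ± 0.85 (SE, adjusted p = 4.49e-06). In iGPA cells it rose from 2.47 and 2.77 to 111.2 and 128.2, a log2 fold change of 5.06 (adjusted p = 8.98e-05). Its counts in iG+A cells were 8.22 and 1.58 without Dox and 25.5 and 77.4 with Dox, a log2 fold change of 3.23 (adjusted p = 0.00532). The last call was lost without No Dox replicate 2 (2.31, adjusted p = 0.0817), without Dox replicate 2 (2.44, adjusted p = 0.0717), and when only the iG+A groups were fitted (adjusted p = 0.052).

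The 3 lines with calls for Slc17a8 all carried Gfi1 with another factor. In iGfi1 cells alone both Dox libraries, at 19.2 and 7.26, were above both untreated ones, at 3.83 and 2.82, but the log2 fold change of 1.59 did not pass the test (adjusted p = 0.178). Slc17a8 in iP+A cells, where Otof and Cabp2 rose, was 2.87 and 3.89 without Dox and 6.26 and 4.43 with Dox, a log2 fold change of 0.53 (adjusted p = 0.701). In iAtoh1 and iPou4f3 Dox libraries it was between 0 and 6.91, and the Dox and No Dox values overlapped. With Dox, the ranges of iG+P, iGPA, iG+A and iGfi1 stood in this order without overlap, and those of iP+A, iAtoh1 and iPou4f3 overlapped.

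RefSeq promoters were read for the genes called upward in iGPA cells, from 250 bases before to 50 bases after the start, in the build GRCm38.p6. Of the 4 genes 3 were matched, with 5 promoters, and Otof was not among them. The letters searched on both strands were the E-box forms CAGCTG and CAGATG, which basic helix-loop-helix proteins such as Atoh1 can bind, TAATTAAT for POU4F proteins, and AATCACNGC for GFI1. CAGATG, or its reverse complement CATCTG, was found once in each of 3 promoters, printed below with the match in capitals because these genes were called together in iGPA cells. It lay 42 bases before the start in a promoter of Slc17a8 (chr10:89599766-89600065, minus strand), 147 bases before it in a promoter of Cabp2 (chr19:4082238-4082537, plus strand) and 119 bases before it in that of Pclo (chr5:14514668-14514967, plus strand).
Slc17a8: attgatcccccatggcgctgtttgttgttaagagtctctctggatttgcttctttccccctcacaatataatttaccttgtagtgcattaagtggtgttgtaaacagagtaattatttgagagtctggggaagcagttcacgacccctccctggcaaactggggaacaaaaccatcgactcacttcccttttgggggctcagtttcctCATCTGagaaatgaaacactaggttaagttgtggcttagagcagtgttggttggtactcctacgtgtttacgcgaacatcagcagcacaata
Cabp2: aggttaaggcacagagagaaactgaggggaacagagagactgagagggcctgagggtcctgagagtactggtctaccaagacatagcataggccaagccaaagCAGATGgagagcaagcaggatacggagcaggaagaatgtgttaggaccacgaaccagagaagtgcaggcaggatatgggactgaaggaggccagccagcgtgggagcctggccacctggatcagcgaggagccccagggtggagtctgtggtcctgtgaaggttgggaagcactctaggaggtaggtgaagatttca
Pclo: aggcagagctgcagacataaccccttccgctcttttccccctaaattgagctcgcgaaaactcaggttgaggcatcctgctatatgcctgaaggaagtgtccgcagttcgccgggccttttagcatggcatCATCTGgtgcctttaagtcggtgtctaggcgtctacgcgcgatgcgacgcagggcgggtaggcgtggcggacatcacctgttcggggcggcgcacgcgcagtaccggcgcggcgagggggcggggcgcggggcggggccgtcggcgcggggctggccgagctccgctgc
The other promoter of Slc17a8 and the other of Cabp2 held none of these motifs, and no promoter of the 5 held CAGCTG, TAATTAAT or AATCACNGC. Over all 32851 promoters in the RefSeq table, 17.2% held CAGATG, 16.3% CAGCTG, 0.852% TAATTAAT and 0.919% AATCACNGC. The matches describe letters in these windows, and binding was not measured in these files.

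Cacna1d (chromosome 14, 30853135 to 31304342, minus strand, NCBIM37) encodes CaV1.3, the pore of the L-type calcium channel at the ribbon. It was already transcribed in untreated EBs, at 165.7 to 409.8 normalized counts (median 285.4), and it was called in no line. Its counts in iG+A cells were 165.7 and 290.3 without Dox and 564.3 and 593.6 with Dox, a log2 fold change of 1.40 ± 0.27 (SE, adjusted p = 0.000459) that was just under the fold threshold and reached 1.80 without No Dox replicate 2. For iG+P cells the counts were 359.8 and 297.9 without Dox and 807.3 and 657.3 with it, a log2 fold change of 1.15 (adjusted p = 0.00261). In iGPA cells they were 287.7 and 189.2 without Dox and 585.2 and 444.5 with it, a log2 fold change of 1.12 (adjusted p = 0.00222).

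A threshold of 1 in place of 1.5 would call all 3 of these lines. The Dox and No Dox values of Cacna1d did not overlap in them, nor in iP+A (308.2 and 224 without Dox, 475.9 and 395.7 with it) and iPou4f3 cells (190.2 and 283.2, then 365.8 and 370.3). The log2 fold change was 0.72 in iP+A cells (adjusted p = 0.0577), 0.66 in iPou4f3 cells (adjusted p = 0.189) and 0.05 in iAtoh1 cells (adjusted p = 0.912). With Dox the highest group was iG+P and the lowest was iAtoh1, at 242.6 and 200.5, and from iG+A through iGPA and iGfi1 to iP+A each range overlapped the next.

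Cabp2 (chromosome 19, 4081578 to 4087340, plus strand, NCBIM37) encodes a calmodulin-like protein that keeps CaV1.3 from inactivating in inner HCs. It was at most 5.41 normalized counts in the 14 untreated libraries (median 1.99) and at 0 in 2 of them. In iGPA cells it was 0.968 and 1.70 without Dox and 246.3 and 333.5 with Dox, a log2 fold change of 6.96 ± 0.75 (SE, adjusted p = 6.64e-07). Its counts in iG+P cells were 1.77 and 2.22 without Dox and 168.8 and 223.3 with Dox, a log2 fold change of 6.03 (adjusted p = 5.97e-06). Those in iP+A cells were 1.13 and 1.02 without Dox and 40.1 and 39.0 with Dox, a log2 fold change of 4.29 (adjusted p = 0.000383). These 3 lines all carried Pou4f3 with another factor, and their Dox ranges stood in that order without overlap.

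The remaining values of Cabp2 were low. In iPou4f3 cells it was 2.50 and 3.70 without Dox and 9.99 and 12.7 with Dox, a log2 fold change of 1.59 that did not pass the test (adjusted p = 0.271). Cabp2 in iG+A cells was 2.57 and 0 without Dox and 5.89 and 8.11 with Dox, and was called at a log2 fold change of 2.07 (adjusted p = 0.0348). That call rested on a few reads. It was lost with the replicate block (adjusted p = 0.0702), with a pseudocount of 5 (0.96), when only the iG+A groups were fitted (adjusted p = 0.124), and without No Dox replicate 2 (1.15, adjusted p = 0.324), Dox replicate 1 (adjusted p = 0.0735) or Dox replicate 2 (adjusted p = 0.136). In iAtoh1 cells with Dox it was 3.04 and 3.15, a log2 fold change of -0.25. In iGfi1 cells the Dox libraries, at 7.50 and 0, enclosed the untreated ones, at 0 and 2.22, with a log2 fold change of 0.70 (adjusted p = 0.526) that reached 2.24 without Dox replicate 2 (adjusted p = 0.0261).

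**Figure D2:**
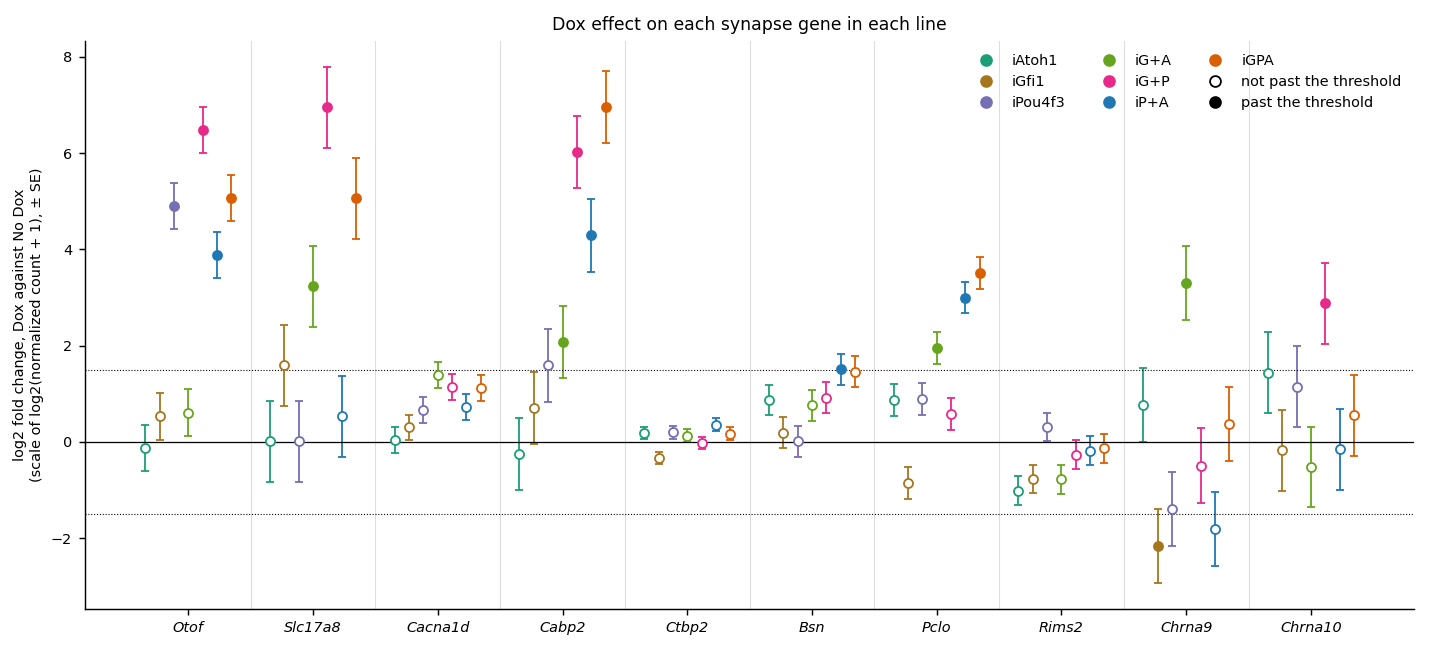
Log2 fold change of Dox against No Dox (± SE, scale of log2(normalized count + 1)) of each synapse gene in each of the 7 lines, filled where the gene was called and open where it was not, with dotted lines at 1.5 and -1.5. The filled points run up to 6.96 (Cabp2 in iGPA) and 6.95 (Slc17a8 in iG+P), and the point for Chrna9 in iGfi1 cells depends on the pseudocount because both Dox libraries are at 0.

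Ctbp2 (chromosome 7, 140179246 to 140316037, minus strand, NCBIM37) encodes both the corepressor CtBP2 and, from another promoter, RIBEYE, the main structural protein of the ribbon. The values are sums over a gene, so the RIBEYE transcript cannot be told apart from the widely expressed form. Ctbp2 was at 2702 to 4267 normalized counts in the untreated libraries and at 2721 to 4622 in the Dox libraries. Its log2 fold change lay between -0.33 in iGfi1 cells (adjusted p = 0.0725) and 0.36 in iP+A cells (adjusted p = 0.0573), each with an SE of 0.13, and its 95% interval in iGPA cells ran from -0.11 to 0.45.

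Bsn (chromosome 9, 107998354 to 108092715, minus strand, NCBIM37) encodes bassoon, the scaffold that anchors the ribbon to the membrane and that also serves conventional active zones. It was between 50.8 and 168.2 normalized counts in the untreated libraries (median 83.1). It rose in iP+A cells from 98.6 and 76.4 to 249.1 and 250.1, a log2 fold change of 1.51 ± 0.32 (SE, adjusted p = 0.00189). In iGPA cells it was 85.6 and 80.6 without Dox and 227.4 and 234.2 with Dox, a log2 fold change of 1.46 (adjusted p = 0.00106). The 2 lines fell on either side of the fold threshold with nearly the same value. The call in iP+A cells ended at a log2 fold change of 1.47 with a pseudocount of 5, 1.40 after quantile normalization, 1.49 after rescaling by the 75th percentile and 1.33 without No Dox replicate 2, and Bsn in iGPA cells reached 1.51 without No Dox replicate 1.

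Bsn in iG+P cells was 78.7 and 79.2 without Dox and 128.5 and 176.7 with Dox, a log2 fold change of 0.92 (adjusted p = 0.0319) under the fold threshold. In iAtoh1 cells it was 50.8 and 79.1 without Dox and 85.1 and 160.7 with Dox, a log2 fold change of 0.87 (adjusted p = 0.0563). Both Dox libraries of iG+A cells, at 216 and 222.1, were above both untreated ones, at 168.2 and 98.6, with a log2 fold change of 0.76 (adjusted p = 0.0645). In iGfi1 and iPou4f3 cells the Dox values, from 69.6 to 125.8, overlapped those without Dox.

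Pclo (chromosome 5, 14514918 to 14863457, plus strand, NCBIM37) encodes piccolo, the large partner of bassoon, of which HCs and photoreceptors use a shorter ribbon form. It was at 64.2 to 145.4 normalized counts in the untreated libraries (median 116.5). In iGPA cells it rose from 123.3 and 94.9 to 1217 and 1276, a log2 fold change of 3.51 ± 0.33 (SE, adjusted p = 1.1e-07). For iP+A cells it rose from 64.2 and 128.3 to 750.9 and 714.5, a log2 fold change of 3.00 (adjusted p = 2.1e-06). For iG+A cells it rose from 125.1 and 145.4 to 686.8 and 399.3, a log2 fold change of 1.95 (adjusted p = 0.000127). The 3 lines all carried Atoh1 with another factor.

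In iAtoh1 cells Pclo was 115.3 and 80.7 without Dox and 258.7 and 121.5 with Dox, a log2 fold change of 0.87 that did not pass the test (adjusted p = 0.062). In iPou4f3 cells it was 119.2 and 119.3 without Dox and 241.1 and 206.4 with Dox, a log2 fold change of 0.90 (adjusted p = 0.136). In iG+P cells, where Otof and Slc17a8 had their highest values, it was 103.2 and 101.0 without Dox and 147 and 160 with Dox, a log2 fold change of 0.58 (adjusted p = 0.188). In iGfi1 cells it was lower with Dox, at 59.3 and 59.5 against 117.7 and 98.4, a log2 fold change of -0.85 (adjusted p = 0.0637). With Dox, the ranges of iGPA, iP+A and iG+A stood in this order without overlap.

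Some neuron markers were called upward in each line in which Pclo rose, and in others. The sum of 8 neuron markers (Tubb3, Dcx, Elavl3, Elavl4, Stmn2, Nefl, Nefm and Map2) was 17277 to 23193 in iP+A Dox, 7774 to 7780 in iGPA Dox, 1712 to 2094 in iG+P Dox, 1809 to 2806 in iAtoh1 Dox, 1500 to 1913 in iPou4f3 Dox, 1090 to 1306 in iG+A Dox (389 to 616 in iG+A No Dox) and 749 to 795 in iGfi1 Dox, against 389 to 1331 over all libraries without Dox. All 8 neuron markers were called upward in iP+A cells, 7 in iGPA, 4 in iAtoh1, 3 in iG+A, 2 each in iG+P and iPou4f3 (Dcx and Elavl4 in both lines) and none in iGfi1 cells. In iPou4f3 cells, where Otof was called, the sum without Dox was 486 to 707. In iG+P cells, where Otof and Slc17a8 had their highest counts, it was 738 to 767 without Dox. The part of the neuronal genes in the values of the synapse genes was not tested. In a bulk library, moreover, fewer cells of a type and less RNA per cell cannot be told apart. Of 8 photoreceptor markers, whose cells also have ribbons, 6 passed the filter and 2 were called upward in iGPA cells. Their sum was 159 to 161 in iGPA Dox and 91 to 167 in iGPA No Dox. In iG+P cells it was 91 to 158 with Dox and 302 to 397 without it. Over all untreated libraries it ran from 91 to 1196.

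Rims2 (chromosome 15, 39029878 to 39513486, plus strand, NCBIM37) encodes RIM2, an active zone protein that promotes the presence of CaV1.3 channels at the ribbon. It was at 188.2 to 633.1 normalized counts in the untreated libraries (median 435.4) and was called in no line. In iAtoh1 cells it was 545.8 and 479.1 without Dox and 285.5 and 226 with Dox, a log2 fold change of -1.01 ± 0.30 (SE, adjusted p = 0.02). Rims2 in iG+A cells was 269.8 and 289.9 without Dox and 125.3 and 211.8 with Dox, a log2 fold change of -0.78 (adjusted p = 0.0434). In iGfi1 cells it was 458.8 and 430 without Dox and 185.9 and 364.9 with Dox, a log2 fold change of -0.77 (adjusted p = 0.0633). In these 3 lines both Dox libraries were below both untreated libraries, by less than the fold threshold. The log2 fold changes of the remaining lines were 0.31 (iPou4f3), -0.27 (iG+P), -0.18 (iP+A) and -0.13 (iGPA), with a 95% interval from -0.75 to 0.49 in iGPA cells.

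Chrna9 (chromosome 5, 66326160 to 66368565, plus strand, NCBIM37) encodes the α9 subunit of the efferent acetylcholine receptor. It was between 1.97 and 13.8 normalized counts in the untreated libraries (median 3.69). Chrna9 in iG+A cells rose from 2.32 and 3.36 to 28.7 and 46.4, a log2 fold change of 3.30 ± 0.77 (SE, adjusted p = 0.00235). These 2 libraries were the highest of all 28. Chrna9 passed the filter only through them, with 1 other library (iP+A No Dox replicate 2) at 10 or more, so it had to be high in iG+A Dox to be tested there. With no filter on low values the call stood (3.30, adjusted p = 0.0021). It was called upward in no other line. In iAtoh1 cells both Dox libraries, at 8.23 and 9.46, were above both untreated ones, at 6.84 and 3.26, with a log2 fold change of 0.76 (adjusted p = 0.519). In iGPA cells, which carry the same 2 factors with Pou4f3, it was 5.24 and 1.97 without Dox and 5.12 and 4.04 with Dox, a log2 fold change of 0.37 (adjusted p = 0.731).

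In iGfi1 cells Chrna9 was 4.00 and 3.00 without Dox and at 0 in both Dox libraries. It was called downward there (adjusted p = 0.0465), but counts this low leave little to fall, and the call was lost with a pseudocount of 5 (adjusted p = 0.159), after quantile normalization (adjusted p = 0.056) and when any of the 4 libraries was left out (adjusted p from 0.12 to 0.172). In iP+A cells it was 3.05 and 13.8 without Dox and 0 and 3.85 with Dox, a log2 fold change of -1.81 (adjusted p = 0.0962). With the replicate block it was called downward (adjusted p = 0.0205), as it was without No Dox replicate 1 (-2.75, adjusted p = 0.0372) or without Dox replicate 2 (-2.95, adjusted p = 0.0244). The Dox values were at most 3.93 in iPou4f3 and iG+P cells.

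Chrna10 (chromosome 7, 109259780 to 109265227, minus strand, NCBIM37) encodes the α10 subunit, which joins α9 in the HC receptor. It was at most 8.01 normalized counts in the untreated libraries, with 3 of the 14 at 0. In iG+P cells it was 2.05 and 0 without Dox and 10.8 and 13.0 with Dox, and was called at a log2 fold change of 2.88 ± 0.84 (SE, adjusted p = 0.0119). The call was lost without No Dox replicate 2 (2.08, adjusted p = 0.14) and without Dox replicate 2 (2.76, adjusted p = 0.065). In iGPA cells it was 6.12 and 6.88 without Dox and 8.18 and 12.1 with Dox, a log2 fold change of 0.55 (adjusted p = 0.623), and in iAtoh1 cells 0 and 4.89 without Dox and 5.48 and 5.68 with Dox, a log2 fold change of 1.44 (adjusted p = 0.231). Chrna9 was called upward in iG+A and Chrna10 in iG+P cells, and whether these 2 lines differ from each other in either gene was not tested. At these counts a difference of a few reads decides the value.

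The effect of Dox in iGPA cells was then set against that in 4 other lines, as a difference of log2 fold changes in the same fit. Against iAtoh1 cells, where 9.03% of all genes differed in either direction, Otof (5.20, adjusted p = 3.04e-05), Slc17a8 (5.05, adjusted p = 0.00561), Cabp2 (7.22, adjusted p = 0.000102) and Pclo (2.64, adjusted p = 0.000505) had a larger effect in iGPA cells. The difference for Cacna1d was 1.07 (adjusted p = 0.0544, 95% interval 0.27 to 1.87). Thus 4 of the 10 genes had a larger Dox effect in the line with Gfi1, Pou4f3 and Atoh1 than in that with Atoh1 alone. The comparison does not separate the part of Atoh1 from those of Gfi1 and Pou4f3.

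Against iP+A cells (7.6% of all genes), the line that lacks Gfi1, only Slc17a8 among the 10 differed, by 4.53 (adjusted p = 0.0132). The differences of Otof (1.18, 95% interval -0.25 to 2.61, adjusted p = 0.248), Cabp2 (2.67, interval 0.44 to 4.91, adjusted p = 0.0887) and Pclo (0.52, interval -0.46 to 1.49, adjusted p = 0.486) did not pass the test. Cabp2 was called higher in iGPA cells with a pseudocount of 5 (2.65, adjusted p = 0.000945), when only these groups were fitted (2.67, adjusted p = 0.0165), and when the Dox libraries of the lines were compared directly, without their controls (2.83, adjusted p = 0.00648).

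Against iG+A cells (2.2% of all genes), the line that lacks Pou4f3, Otof differed by 4.46 (adjusted p = 0.000586) and Cabp2 by 4.90 (adjusted p = 0.0112). The call for Cabp2 was lost with a pseudocount of 0.5 (adjusted p = 0.0657), when only these groups were fitted (adjusted p = 0.0504), and without iG+A No Dox replicate 1 (adjusted p = 0.0736), iGPA No Dox replicate 1 (adjusted p = 0.0526) or iGPA Dox replicate 2 (adjusted p = 0.0503). Slc17a8 differed by 1.83 (interval -0.69 to 4.35, adjusted p = 0.444). Pclo differed by 1.56 (interval 0.59 to 2.54, adjusted p = 0.0664), which was called with the replicate block (adjusted p = 0.0355) and without iG+A Dox replicate 1 (1.95, adjusted p = 0.0263). Chrna9 was -2.93 (interval -5.23 to -0.63, adjusted p = 0.151), lower in iGPA cells, and was called with the replicate block (adjusted p = 0.0336), with a pseudocount of 5 (adjusted p = 0.0233) and between the Dox libraries directly (-2.76, adjusted p = 0.0245).

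Against iG+P cells (5.9% of all genes), the line that lacks Atoh1, Pclo had a larger effect in iGPA cells by 2.93 (adjusted p = 0.000356). Otof and Slc17a8 had lower values in iGPA cells, by differences of -1.41 (interval -2.84 to 0.03, adjusted p = 0.181) and -1.90 (interval -4.41 to 0.62, adjusted p = 0.323), which did not pass the test. Slc17a8 was called lower in iGPA cells when the Dox libraries were compared directly (-2.79, adjusted p = 0.0219) and with a pseudocount of 5 (-2.22, adjusted p = 0.0368). Cabp2 differed by 0.93 (interval -1.30 to 3.17, adjusted p = 0.616) and Chrna10 by -2.33 (interval -4.81 to 0.16, adjusted p = 0.204). Between the Dox libraries directly, Chrna10 differed by -0.23 (adjusted p = 0.881), and their values overlapped. The 4 comparisons share the iGPA libraries, so they are not independent of each other.

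**Figure D3:**
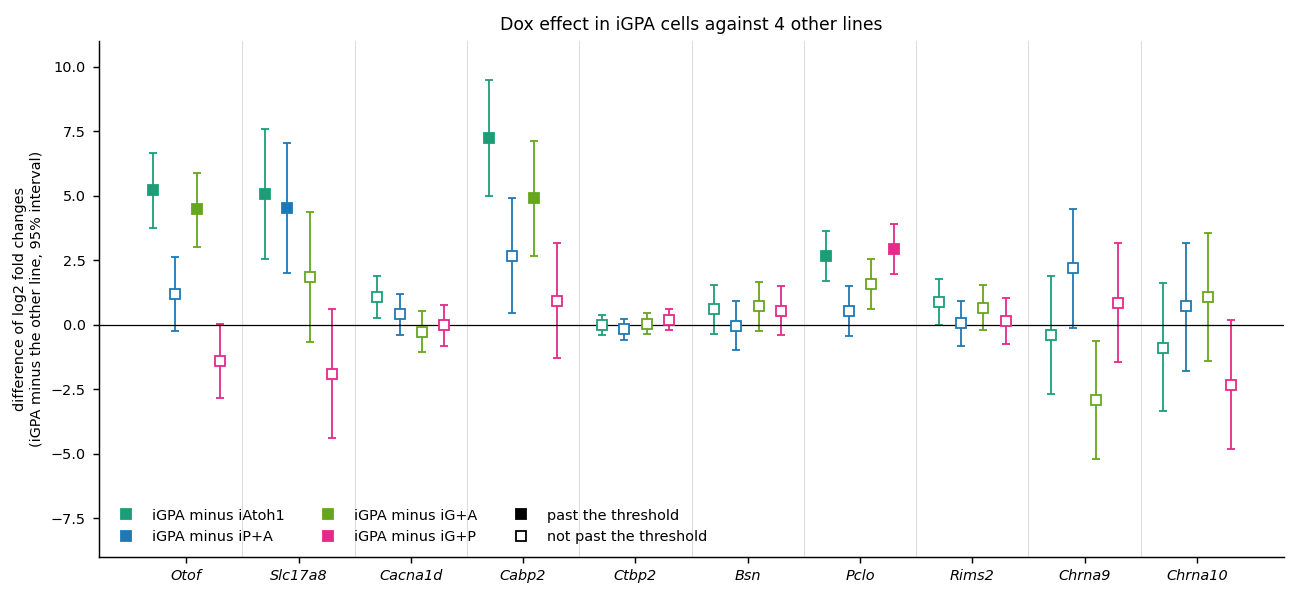
Difference between the log2 fold change in iGPA cells and that in iAtoh1, iP+A, iG+A or iG+P cells for each synapse gene, with 95% intervals, filled where the difference was called. The called differences, all above 0, are those of Otof and Cabp2 against iAtoh1 and iG+A, Slc17a8 against iAtoh1 and iP+A, and Pclo against iAtoh1 and iG+P. Intervals of differences that were not called also lie above 0 for Cacna1d against iAtoh1, Cabp2 against iP+A and Pclo against iG+A, and below 0 for Chrna9 against iG+A, while the intervals of Ctbp2 and Bsn include 0 in all 4 comparisons.

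For the lines with a pair of factors, the log2 fold change was also compared with the sum of those of the 2 lines with its single factors. For iG+A cells (2.99% of all genes called in either direction) Pclo exceeded the sum of iGfi1 and iAtoh1 by 1.92 (interval 0.73 to 3.12, adjusted p = 0.049) and Chrna9 by 4.70 (interval 1.88 to 7.51, adjusted p = 0.0434). Both calls stood close to the threshold, and the excess of Chrna9 is no measured size, since it rests on the iGfi1 Dox libraries at 0 and went from 2.69 with a pseudocount of 5 to 5.65 with one of 0.5. Chrna9 also passed the filter only through iG+A Dox, and with no filter the adjusted p was 0.0433. For Pclo the call was lost without a filter, with the 75th percentile, without the variance trend and when only these groups were fitted (adjusted p from 0.0537 to 0.152), and for Chrna9 with a pseudocount of 0.5 (adjusted p = 0.0512) and quantile normalization (adjusted p = 0.0524). Leaving out a library ended the call for Pclo in 8 of 12 cases and for Chrna9 in 10 of 12. For iG+P cells (0.208% of all genes) Slc17a8 exceeded the sum of iGfi1 and iPou4f3 by 5.35 (interval 2.27 to 8.44, adjusted p = 0.165), Cabp2 by 3.74 (interval 0.99 to 6.48, adjusted p = 0.347) and Otof by 1.04 (interval -0.71 to 2.80, adjusted p = 0.862), and none passed the test. With a pseudocount of 5 Slc17a8 (5.04, adjusted p = 0.00946) and Cabp2 (3.43, adjusted p = 0.0119) did, as did Cabp2 without iGfi1 Dox replicate 1 (5.28, adjusted p = 0.0478). For iP+A cells (0.422% of all genes) Cabp2 exceeded the sum by 2.95 (interval 0.21 to 5.69, adjusted p = 0.373) and Pclo by 1.23 (interval 0.04 to 2.42, adjusted p = 0.4), and neither passed.

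Genes that work beside these 10 were read from fixed lists, whose counts stand beside the shares of all genes tested given above, 1.47% to 8.65% upward and 0.606% to 5.36% downward by line. Of 18 partners at the ribbon and efferent synapse, all tested, 5 were called upward and none downward in iGPA cells, 6 upward in iP+A, and 3 upward each in iG+A, iG+P and iPou4f3 cells, while 1 was called downward in iAtoh1 cells and none in iGfi1 cells. Rimbp2 encodes RIM-BP2, which links RIMs to calcium channels. It rose from 100.9 and 55.2 to 6191 and 5168 in iGPA cells (log2 fold change 6.22, adjusted p = 2.53e-09), by 3.34 in iP+A, 3.08 in iG+P and 2.41 in iPou4f3 cells, and fell by 1.59 in iAtoh1 cells (adjusted p = 0.0118). Atp2b2, the calcium pump of the hair bundle, rose from 41.9 and 19.4 to 588.8 and 668.7 in iGPA cells (4.41, adjusted p = 1.63e-08) and was called upward in iG+P (4.29), iG+A (3.60), iP+A (3.59) and iPou4f3 (2.30) cells as well.

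Cacna2d2 encodes the α2δ-2 subunit of the HC calcium channel. It rose from 725.4 and 568 to 7886 and 8618 in iGPA cells (log2 fold change 3.68, adjusted p = 4.6e-11), and by 2.72 in iP+A, 2.70 in iG+A, 2.17 in iG+P and 1.81 in iPou4f3 cells. Syt7, a calcium sensor of vesicle traffic, rose by 2.86 in iGPA (adjusted p = 7.68e-07), 2.97 in iG+A and 1.70 in iP+A cells. Kcnn2, chosen after its values were seen, encodes the SK2 potassium channel that α9 and α10 receptors activate in HCs. It went from 233 and 210.8 to 857.5 and 523.5 in iP+A cells, a call at a log2 fold change of 1.59 (adjusted p = 9.52e-06), and its log2 fold change in the other lines was 1.40 (iAtoh1), 1.39 (iPou4f3), 1.11 (iG+P), 0.94 (iGPA), 0.93 (iG+A) and 0.34 (iGfi1).

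Of 21 listed paralogs of the 10 genes, 19 were in the table and 16 were tested. In iGPA cells 4 were called upward and 1 downward, in iP+A cells 4 upward, in iG+A cells 3 upward and 1 downward, in iG+P cells 1 upward and 2 downward, in iGfi1 cells 2 downward, and in iAtoh1 and iPou4f3 cells 1 upward each. The upward counts in iGPA, iP+A and iG+A cells stood above the shares of all genes called upward there (8.65%, 4.7% and 7.35%). In iG+P, iAtoh1 and iPou4f3 cells those shares were 5.16%, 2.89% and 1.47%. These are counts among 16 genes, no test was run on them, and no more is read from them. Slc17a7 encodes VGLUT1, the vesicular glutamate transporter of many neurons, and is a paralog of Slc17a8. It rose from 18.0 and 14.3 to 873.8 and 681.9 in iGPA cells (log2 fold change 5.50, adjusted p = 2.52e-09), by 4.91 in iP+A, 4.24 in iAtoh1 and 2.90 in iG+A cells, and was under the fold threshold in iG+P cells (1.36, adjusted p = 0.00882). Both transporters were called in iGPA and iG+A cells, Slc17a8 in iG+P cells as well, and Slc17a7 in iAtoh1 and iP+A cells, and a difference between the 2 genes was not tested.

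Cabp1, a neuronal relative of Cabp2, rose by 3.87 in iGPA (250.8 and 152.3 to 3257 and 2520, adjusted p = 9.64e-09), 3.65 in iP+A, 3.36 in iPou4f3 and 2.97 in iG+P cells, all lines with Pou4f3. Cacna1b, the pore of the N-type channel of neuronal terminals, rose by 2.50 in iGPA (adjusted p = 7.23e-06), 1.78 in iG+A and 1.71 in iP+A cells. Myof, a ferlin of membrane repair related to Otof, fell from 330.4 and 582 to 79.7 and 101.1 in iGPA cells (log2 fold change -2.28, adjusted p = 4.12e-05) and was called downward in iG+A (-2.21) and iGfi1 (-1.62) cells too. The sum of 8 fibroblast or mesoderm markers was 8591 to 11532 in iGPA Dox against 75840 to 122176 in iGPA No Dox, and that of 7 blood markers 19612 to 36989 against 259421 to 433327. In iG+A cells both sums were lower with Dox as well, at 18072 to 44463 against 113242 to 160711 and at 40478 to 46844 against 370292 to 482431. In iGfi1 cells the fibroblast or mesoderm sum was lower with Dox (38490 to 46520 against 103271 to 127010), while the blood sum was 194979 to 363254 with Dox and 174600 to 251035 without it. The part of these differences between sorted cells and whole EBs in the fall of Myof was not tested.

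The other nicotinic receptor subunits were 14, of which 11 were tested. In iGPA cells 5 were called upward and 1 downward, in iP+A cells 6 upward, in iAtoh1 cells 4 upward, in iG+A cells 4 upward and 1 downward, in iPou4f3 cells 1 upward, in iG+P cells 1 downward and in iGfi1 cells 2 downward. Chrnb4 and Chrna3, the subunits of the ganglionic receptor of autonomic neurons, rose in iGPA cells from 83.3 and 31.2 to 2436 and 1656 (log2 fold change 5.27, adjusted p = 4.55e-07) and from 17.5 and 10.8 to 411.1 and 217.8 (4.35, adjusted p = 3.64e-05). Both were also called upward in iP+A (2.77 and 4.52), iG+A (3.08 and 1.95) and iAtoh1 (1.90 and 2.02) cells. Chrnb1 and Chrng, subunits of the muscle receptor, rose in iGPA cells by 3.02 (adjusted p = 3.75e-08) and 3.00 (adjusted p = 1.48e-06) and in iG+A cells by 2.40 and 4.54, and Chrng was also called upward in iAtoh1 (2.89, adjusted p = 1.17e-05) and iP+A (1.61, adjusted p = 0.00228) cells. In the fit without the block, neither Chrna9 nor Chrna10 was called in iGPA or iP+A cells.

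Of 14 genes of the conventional neuronal terminal, all tested, 5 were called upward in iGPA, 4 in iP+A, and 2 each in iG+A and iG+P cells, and 1 each in iAtoh1, iGfi1 and iPou4f3 cells, with 1 called downward in iG+P, iAtoh1 and iGfi1 cells. Syp, which encodes synaptophysin, a protein of neuronal vesicles that inner HC vesicles are known to lack, rose from 65.5 and 44.2 to 1401 and 1342 in iGPA cells (log2 fold change 4.64, adjusted p = 1.1e-08) and was called in iP+A (3.34), iG+A (2.28) and iAtoh1 (1.62) cells. Syt1, the calcium sensor of fast neuronal release, rose by 3.17 in iGPA (adjusted p = 4.26e-07), 2.85 in iPou4f3, 2.35 both in iG+A and in iG+P, and 2.32 in iP+A cells. Vamp1, a vesicle SNARE, rose by 1.78 in iGPA (adjusted p = 0.00255) and 1.86 in iG+P cells. Genes of the conventional terminal were thus called beside the HC synapse genes in the same libraries. The median log2 fold change in iGPA cells was 1.25 for the terminal genes, 1.35 for the nicotinic subunits, 0.38 for the partners and -0.19 for the paralogs, against 1.29 for the 10 synapse genes and 0.01 for all genes.

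**Figure D4:**
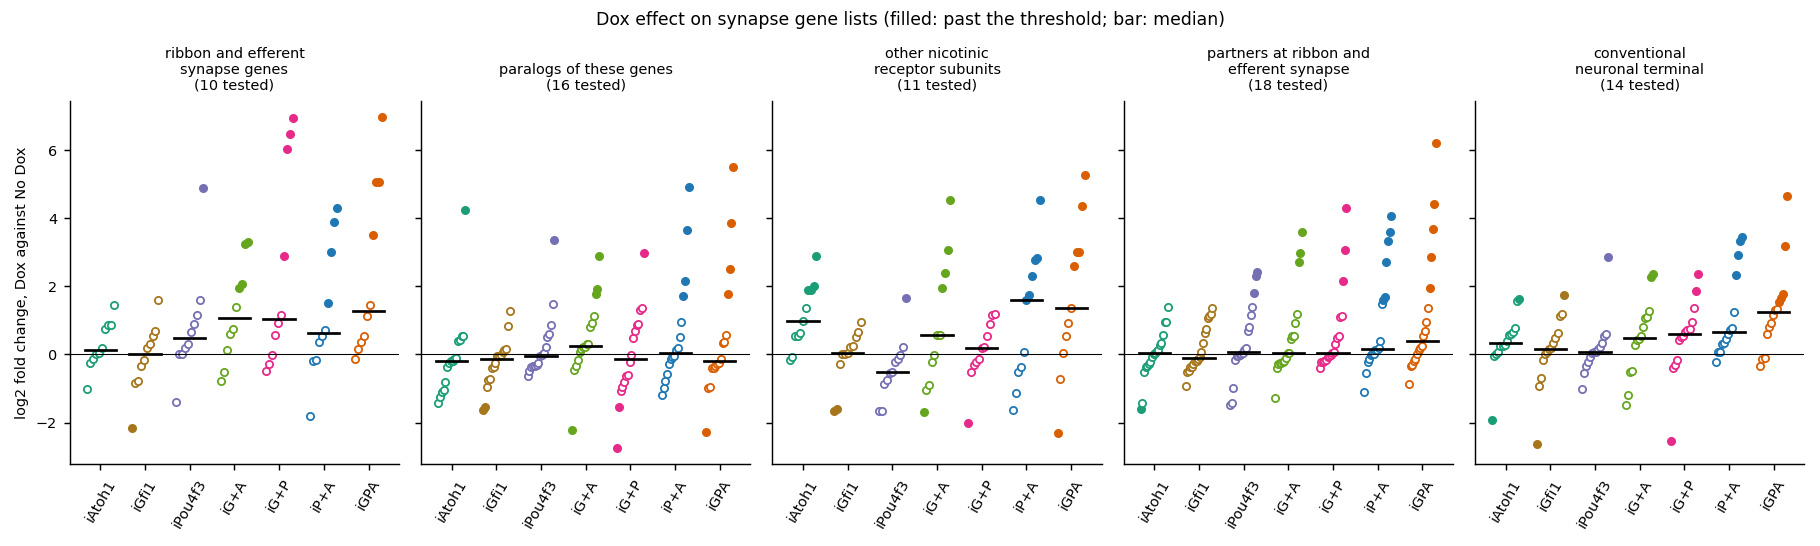
Log2 fold change of Dox against No Dox for every tested gene of the 10 synapse genes and of 4 related lists, by line, filled where called, with the median of each list as a bar. In iGPA cells the medians are 1.29 for the synapse genes, -0.19 for the paralogs, 1.35 for the nicotinic subunits, 0.38 for the partners and 1.25 for the terminal genes.

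The genes whose pattern was most like that of each called synapse gene were found by Pearson's r of log2 expression over the 14 group means, which share libraries and line and are described without a test. Those near Otof included Sncg (r = 0.973). For Slc17a8 they were Ildr2 (0.955), Podn (0.949) and Ppm1h (0.944), and for Cabp2 Defa5 (0.978), Defa35 (0.976) and Lpar3 (0.966). For Pclo they were Neurod1 (0.972), Castor2 (0.965) and Rnf180 (0.963), and for Bsn Arid1b (0.962), 5330434G04Rik (0.953) and Hivep1 (0.944). The nearest to Chrna9 were Wnt6 (0.885), Ttpa (0.862) and Slc39a2 (0.823), and to Chrna10 Slc6a20b (0.886), Aldh8a1 (0.841) and Fam151a (0.817). The 2 nicotinic genes had the lowest likeness to any other gene, and they also reached 10 normalized counts in the fewest libraries. No gene was among the nearest of more than 1 synapse gene.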

How the data were processed

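RNA-seq values of 28 libraries (7 lines, Dox or No Dox, 2 replicates) were read from 1 deposited table. The authors ran cutadapt, then Kallisto against mm9 knownGene transcripts, gene sums by tximport and DESeq2 normalization, and deposited log2(normalized count + 1). Versions are not given in the sources used here. Counts over a gene cannot separate isoforms. Genes were named from RefSeq (19314 of 19421) and placed by GENCODE M1 (NCBIM37). Between 71.1% and 79.4% of values up to 20 lay within 0.05 of a whole number of reads, so whole reads were not recovered and count tests were not run.

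The 16837 genes that reached 10 normalized counts in 2 libraries or more were fitted in R 4.3.3 by limma 3.58.1, using a variance trend, all 14 groups, 14 residual degrees of freedom, and p-values adjusted per comparison by Benjamini-Hochberg. All adjusted p-values and 95% intervals are from limma. The fold threshold of 1.5 is that of the study.

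Replicates were different clones per the series record, and equal numbers, not stated to be the same clone, were taken to pair Dox with No Dox. Deviations from the group means of same-numbered libraries correlated across genes by 0.238, 0.127, 0.231, 0.158, 0.103, 0.246 and 0.152 (iAtoh1, iGfi1, iPou4f3, iG+A, iG+P, iP+A, iGPA), and a fit with the replicate block was run.

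The genes, lists and tests were chosen with earlier results of these data known. All 10 genes are named. From each list the up to 4 genes with the largest fold change called in iGPA cells are named, and for each called synapse gene the 3 genes of highest correlation. A few genes that this rule gives are not reported here. Alternatives were pseudocounts of 0.5 and 5, no filter or one of 50, quantile normalization, rescaling to the 75th percentile, a fit of only the groups compared, the replicate block, no trend, a fold threshold of 1 and leaving out each library. Dox libraries compared directly were added after seeing the data.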

Additional observations from a re-analysis of the deposited data

Results flagged for a closer look

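The differences of the Dox effect between lines that passed the test of the difference itself were these, as differences of log2 fold changes. The effect on Otof in iGPA cells exceeded that in iAtoh1 by 5.20 and that in iG+A by 4.46. For Slc17a8 it exceeded that in iAtoh1 by 5.05 and that in iP+A by 4.53. For Cabp2 it exceeded that in iAtoh1 by 7.22 and that in iG+A by 4.90, and the call against iG+A was also lost under several settings. For Pclo it exceeded that in iAtoh1 by 2.64 and that in iG+P by 2.93. In iG+A cells Pclo exceeded the sum of the 2 single lines by 1.92 and Chrna9 by 4.70, and both of these were lost under several settings. The latter is no measured size, since iGfi1 Dox was at 0 in both libraries, and Chrna9 passed the filter on low values only through iG+A Dox. Groups of 2 libraries are too small for a test of single outlying libraries.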

How the results depend on the processing

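Of 760 values of the 75 member fold changes under the other settings, 726 kept their direction and side of the threshold, 17 lost a call, 17 gained one and none changed sign. Of 432 values with 1 library left out, 386 kept both, 33 lost a call, 7 gained one and 6 changed sign, and the last were fold changes that had not been called: in iAtoh1 cells Otof (-0.60 to 0.35 over the left-out libraries), Cacna1d (-0.08 to 0.19) and Cabp2 (-0.65 to 0.14), and in iGfi1 cells Cabp2 (-0.84 to 2.24). The calls of Otof, Slc17a8, Cabp2 and Pclo in iGPA and those of Otof, Slc17a8 and Cabp2 in iG+P cells were kept under all alternatives. Quantile normalization and rescaling moved the median gene by less than 0.1 on the log2 scale. The cause of the changes below was not tested, beyond the smaller fit where only the groups compared, or fewer libraries, entered.

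With the replicate block, which pairs libraries of the same number within a line, synapse genes called went from 0 to 1 downward in iP+A cells (Chrna9) and from 2 to 4 for iGPA minus iG+A (Pclo and Chrna9 added), Cabp2 in iG+A cells was lost, and the block changed no other call reported for the 10 genes. All genes called went with the block from 504 to 762 for iG+A beyond the sum of its single lines and from 71 to 172 for iP+A beyond its sum.

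With only the groups compared, synapse genes called went to 2 upward in iG+A cells, 2 for iGPA minus iP+A, 1 for iGPA minus iG+A and 1 for iG+A beyond its sum. All genes called then fell to 226 downward in iAtoh1, 117 upward and 18 downward in iPou4f3 and 192 downward in iP+A cells, 183 for iGPA minus iG+A, 201 for iG+A beyond its sum and 33 for iP+A beyond its sum. A log2 fold change of at least 1 gave 1 synapse gene downward in iAtoh1 cells (Rims2). It added upward calls for Cacna1d in iG+A, iG+P and iGPA cells and for Bsn in iGPA cells. Over all genes it gave 775 upward and 715 downward in iAtoh1, 656 and 991 in iGfi1, 1326 and 1417 in iG+P cells, and downward 157 in iPou4f3, 1342 in iG+A, 790 in iP+A and 1368 in iGPA cells.

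With a pseudocount of 5, synapse genes called were 0 downward in iGfi1 cells, 2 for iGPA minus iP+A, 2 for iGPA minus iG+P and 2 for iG+P beyond its sum, where 64 of all genes were called in place of 35. With a pseudocount of 0.5 they were 1 for iGPA minus iG+A and 1 for iG+A beyond its sum. The latter was also 1 with no filter, a filter of 50, quantile normalization, the 75th percentile and no trend. A filter of 50 and quantile normalization left 0 downward in iGfi1 cells. Chrna9 was at most 46.4 in any library, so under a filter of 50 it could not be called in any comparison. Dox libraries compared directly gave 2 synapse genes each for iGPA against iP+A and iGPA against iG+P, and 672 of all genes for iGPA against iG+A in place of 371.

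With 1 library left out, synapse genes called ranged from 0 to 2 for iG+A beyond its sum, 0 to 1 for iG+P beyond its sum, 1 to 3 for iGPA minus iG+A, 2 to 4 upward in iG+A, 0 to 1 upward and 0 downward in iGfi1, and 0 to 1 downward in iP+A cells. Upward counts ranged from 3 to 4 in iG+P and in iP+A cells and from 4 to 5 in iGPA cells. All genes called ranged from 223 to 768 for iG+A beyond its sum, 8 to 47 for iG+P and 18 to 108 for iP+A beyond theirs, 223 to 334 upward and 291 to 546 downward in iGfi1, 233 to 528 downward in iP+A and 15 to 67 downward in iPou4f3 cells. Chrna9, Chrna10 and Cabp2 had a few reads per library in most groups, and their calls between such groups (Chrna9 in iGfi1, Chrna10 in iG+P and Cabp2 in iG+A cells) were each lost with some library left out.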
